A study of Mus musculus with 10 samples.

Results

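Histone deacetylases remove acetyl groups from lysines of histones and other proteins. The 10 genes Hdac1 to Hdac10 were followed here through mouse eggs that had been taken apart into the meiotic spindle and the rest of the cell. A probe set, the group of short probes that reports 1 transcript on the array, was taken as a member if the platform annotation gave it exactly 1 gene and that gene was Hdac1 to Hdac10. This gave 17 probe sets of 45101, covering all 10 genes out of 18193 that have such probe sets. Hdac2 and Hdac4 had 3 probe sets each, Hdac7, Hdac9 and Hdac10 had 2 each, and the other genes had 1 each.

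The arrays compared 3 kinds of sample, all from female B6D2F1 mice and all from oocytes matured in vivo to metaphase of the second meiotic division (MII). The mice received eCG, a hormone that makes follicles grow, and 48 h later 5 IU of hCG, which sets off ovulation; cumulus cells, the somatic cells around the egg, were then removed with hyaluronidase at 120 IU/ml. The spindle-chromosome complex (SCC), lifted out by microsurgery, holds the chromosomes on their meiotic spindle and the cytoplasm that comes along (3 arrays, replicates 1 to 3). The cytoplast is the enucleated egg that remains (4 arrays, replicates 1 to 4), and the intact MII oocyte holds both (3 arrays, replicates 2 to 4). The design text asks whether maternal mRNAs are enriched at the spindle. The labels give the arrays as biological replicates but do not say from which animals or pools, so the p-values cover the spread between these arrays, part of which may be technical. At most 50 ng of total RNA per sample was amplified in repeated rounds, so each value is a relative amount within the RNA of that sample.

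The family falls into classes by structure. Class I enzymes (Hdac1, Hdac2, Hdac3 and Hdac8) are mostly nuclear. Hdac1 and Hdac2 are close paralogues that form the catalytic core of the Sin3, NuRD, CoREST and mitotic deacetylase complexes, while Hdac3 works in the NCoR and SMRT complexes and Hdac8 deacetylates cohesin. Class IIa enzymes (Hdac4, Hdac5, Hdac7 and Hdac9) have little catalytic activity of their own and move between nucleus and cytoplasm as regulators of transcription factors. Class IIb enzymes are mainly cytoplasmic: Hdac6 removes acetyl groups from alpha-tubulin, and Hdac10 acts on polyamines. In mouse oocytes, histones lose much of their acetylation when meiosis resumes, and HDAC2 is known as an enzyme needed for this and for normal chromosome segregation. Transcription is silent in the MII egg, so its mRNAs are stored maternal transcripts.

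The array median intensity lay between 15.6 and 16.6, and the correlation of log2 values between replicate arrays of a group between 0.984 and 0.995. A background level was set on each array at the 95th percentile of probe sets for genes of other tissues, and it ran from 80.7 to 111 on the cytoplast and MII oocyte arrays and from 97.2 to 167 on the SCC arrays. Of the 48 such genes, 3 lay above it on every array of each group: Cpa1, Vil1 and Miox. The summed intensity of the 48 ran from 6547 to 9348 in the SCC. It ran from 4161 to 6918 in the cytoplast and from 4780 to 6274 in the MII oocyte. The part of these genes in the higher SCC level was not tested. Of 16 oocyte markers on the array, 13 lay above the background level on every array of each group, among them Zp3, Gdf9 and Bmp15. Of 21 markers of cumulus and granulosa cells, 1 did so in the SCC and none in the other groups. Their summed intensity ran from 688 to 855 in the SCC, from 633 to 761 in the cytoplast and from 657 to 768 in the MII oocyte. The controls added at hybridisation differed between arrays of the same group, from 9.62 to 11.08 on the log2 scale. They were brightest on cytoplast 4, MII oocyte 2, MII oocyte 4 and SCC 3.

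Most of the family was dim in these eggs. Of the 17 probe sets, 14 were never above the background level, 3 exceeded it on at least 1 array, and 1, for Hdac2, exceeded it on every array. With the level set at the 75th percentile of the array instead, 8 exceeded it on at least 1 array and 3 on every array, and 8 exceeded the median of every array. At the background level first given, the other probe sets that reached it were the dimmer one of Hdac2 and the one of Hdac3. Each did so on MII oocyte arrays alone and on 1 of them. That level was higher on SCC 2 (136) and SCC 3 (167) than on MII oocyte 3 (99.97). For the 14, "not well above background" is the reading; it does not show that a transcript is missing. A probe set was tested if it exceeded the median of its array on 3 or more arrays, which 9 probe sets of 7 genes did. Hdac5, Hdac8 and Hdac10 had none.

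**Figure D1:**
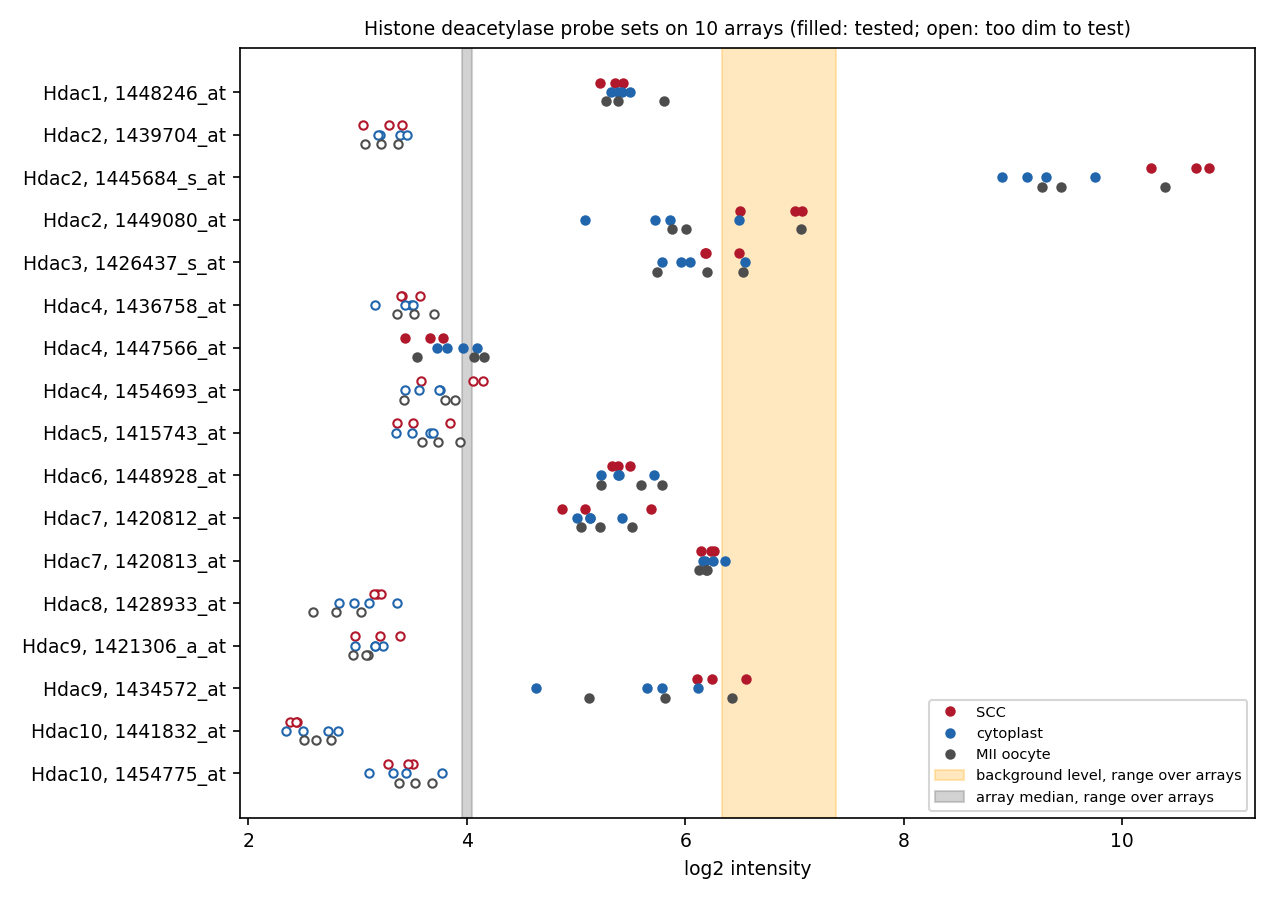
Log2 intensity (horizontal axis) of each of the 17 histone deacetylase probe sets (rows) on the 10 arrays, coloured by group; filled points are the 9 tested probe sets and open points the ones too dim to test. The Hdac2 probe set 1445684_s_at lies apart at the right, with its SCC points highest, while 14 probe sets never pass the background level. Positions of different probe sets are not comparable as amounts of RNA.

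Hdac2 was the member that differed between spindle and cytoplast. Its probe set 1445684_s_at had intensities of 1228, 1770.3 and 1636 on the 3 SCC arrays. On the 4 cytoplast arrays it read 559, 630.2, 859 and 476, and on the 3 MII oocyte arrays 613, 1344 and 692. Every SCC array thus lay above every cytoplast array, whereas the MII oocyte group was spread over both ranges, with its replicate 3 above SCC replicate 1. The means were 1545 ± 282 (SD, n = 3) in the SCC, 883 ± 401 (SD, n = 3) in the MII oocyte and 631.1 ± 164 (SD, n = 4) in the cytoplast.

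The SCC was 2.48-fold above the cytoplast (log2 difference 1.31, SE 0.27, 95% interval 0.72 to 1.90, limma adjusted p = 0.0169). Against the intact MII oocyte the difference was 0.88 (SE 0.29, interval 0.25 to 1.51), which missed the threshold (limma adjusted p = 0.237, unadjusted p = 0.0108). The cytoplast and the MII oocyte, neighbours in the order of levels, did not differ beyond their spread (-0.43, interval -1.02 to 0.16, limma adjusted p = 0.926). The intact egg, which contains both parts, had a mean between the 2 parts. Because values are relative to the RNA of each sample, more Hdac2 transcript in the SCC and less of other RNA there cannot be told apart.

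The call between SCC and cytoplast depended on the scaling and on single arrays. After cyclic loess, which evens out intensity-dependent shifts between arrays, the difference was 1.02 (limma adjusted p = 0.108), and after quantile normalization 0.99 (limma adjusted p = 0.123). Leaving out SCC 2 (adjusted p = 0.0926), SCC 3 (0.0902) or cytoplast 1 (0.0584) also raised the adjusted p above 0.05, although the difference stayed between 1.18 and 1.47 whichever array was left out. With the level of the hybridisation controls as a covariate it was 1.28 (limma adjusted p = 0.00381). Against the MII oocyte, the SCC passed the test only without MII oocyte 3 (1.23, limma adjusted p = 0.0261). Of the measures of RNA or amplification quality, the beta-actin ratio parted SCC from cytoplast arrays, narrowly, and the Gapdh ratio did not. The log2 ratio of 3' to 5' probe sets of beta-actin ran from 3.27 to 3.65 in the SCC, wholly below the 3.66 to 5.29 of the cytoplast, and from 3.33 to 4.42 in the MII oocyte. The same ratio for Gapdh overlapped between the groups, at 2.32 to 3.23, 2.57 to 3.92 and 3.17 to 3.36 in that order. Their part in the Hdac2 difference was not tested.

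**Figure D2:**
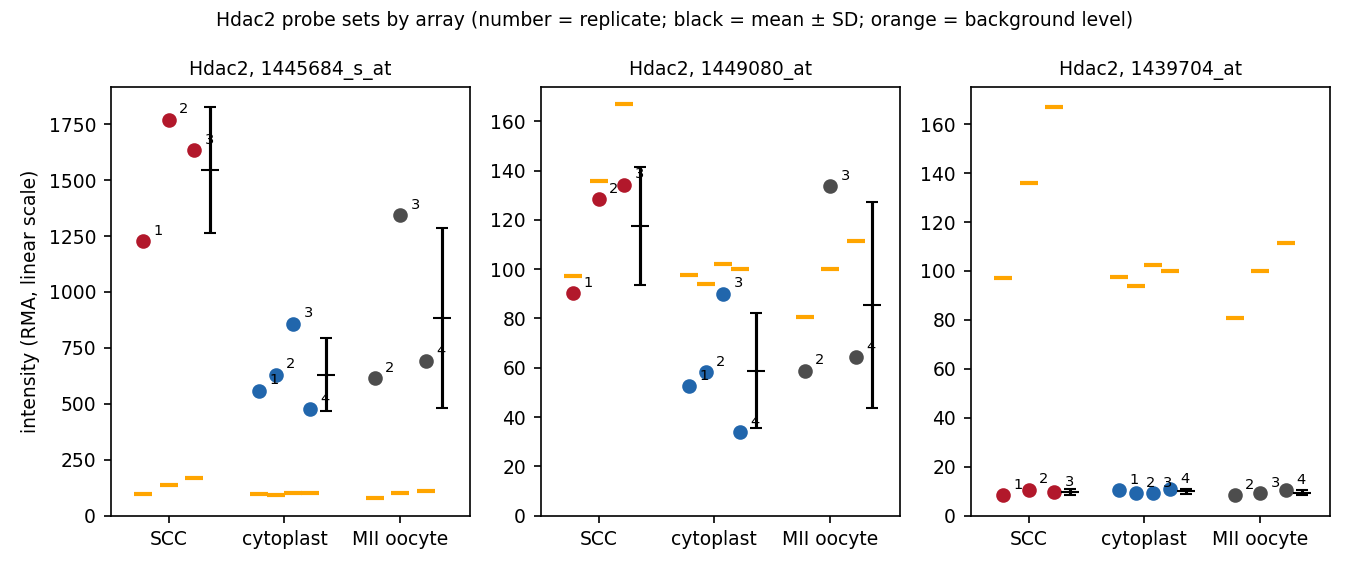
Intensity (vertical axis, linear from 0) of the 3 Hdac2 probe sets (panels) on each array, by group; numbers are replicate numbers, black marks the mean ± SD and orange the background level of each array. For 1445684_s_at the 3 SCC arrays sit between 1228 and 1770.3, above all 4 cytoplast arrays, and MII oocyte 3 sits among them.

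**Figure D3:**
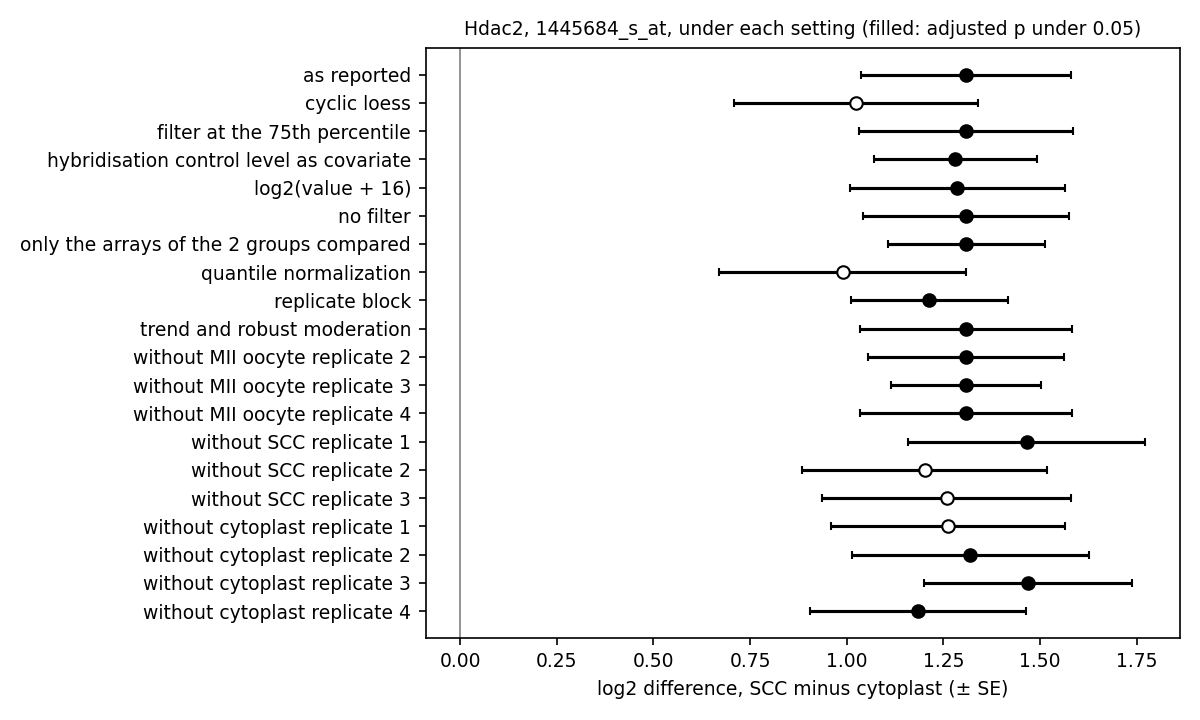
Log2 difference of Hdac2 (1445684_s_at), SCC minus cytoplast, with its SE (horizontal axis) under each processing setting and with each array left out (rows); filled points have an adjusted p under 0.05. The difference is positive in every row, and the points for cyclic loess (1.02) and quantile normalization (0.99) are the lowest and are not filled.

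The second tested probe set of Hdac2, 1449080_at, was much dimmer but moved along with the first. It read 90.31, 128 and 134 in the SCC, 52.7, 58.2, 90.08 and 34.0 in the cytoplast, and 58.9, 134 and 64.2 in the MII oocyte. The SCC and cytoplast arrays did not overlap, though SCC 1 and cytoplast 3 nearly met. SCC 2 and SCC 3 lay below their own background levels (136 and 167) but above the levels of all cytoplast arrays (93.9 to 102). The log2 difference was 1.07 (SE 0.33, interval 0.34 to 1.80, limma adjusted p = 0.0825), and no fold is given because neither group had an array above background. It passed under 3 of 9 other settings, with the hybridisation controls as a covariate (limma adjusted p = 0.0244), with the arrays of the 2 groups alone (0.0429) and with the replicate number as a block (0.0309), and also without cytoplast 3 (0.0359) or MII oocyte 3 (0.0281). Over the 10 arrays the log2 values of the 2 probe sets had a Pearson correlation of 0.955, and of 0.968 after the group means were taken out, so they also rose and fell together among replicates of a group. High correlations were not particular to this pair. With 1445684_s_at, 534 of 12712 other genes correlated above 0.9. With 1449080_at, Hdac9 1434572_at correlated at 0.904, and at 0.881 after the group means were taken out. The remaining Hdac2 probe set, 1439704_at, lay between 8.27 and 10.99 on all arrays and was not tested. The suffix of 1445684_s_at marks probes that can match more than 1 transcript, and which transcript forms each probe set reports was not examined.

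Among the 9 tested members, 1 passed as higher in the SCC against the cytoplast, none as lower, and 8 did not pass. Of all tested probe sets, 6.74% were higher and 0.274% lower. An unadjusted p under 0.05 was seen for 2 of the 9, both of Hdac2, and for 20.2% of all tested probe sets. The SCC arrays lay wholly above the cytoplast arrays for the same 2, beside 13.9% of all tested probe sets. The members' median difference was 0.04, beside 0.01 for all tested probe sets. Bright probe sets as a whole stood higher in the SCC: those with a mean log2 intensity above 8, which include Hdac2 1445684_s_at, had a median difference of 0.28 as deposited, 0.01 after cyclic loess and -0.0018 after quantile normalization, and 20.3% of them were called higher. The part of this shift in the Hdac2 call was not tested beyond the scalings above.

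Of the other class I genes, Hdac1 and Hdac3 were tested and did not pass, and Hdac8 was too dim to test. Hdac1 read 43.0, 37.2 and 41.1 in the SCC, 45.2, 39.9, 41.8 and 42.8 in the cytoplast, and 41.8, 38.6 and 56.1 in the MII oocyte. Its arrays overlapped in every comparison, and SCC minus cytoplast was -0.07 (interval -0.37 to 0.23, limma adjusted p = 0.844). No array of Hdac1 was above background, where differences can be understated. Hdac3 read 72.9, 72.7 and 89.8 in the SCC, 65.9, 62.3, 55.2 and 93.2 in the cytoplast, and 92.2, 53.4 and 73.5 in the MII oocyte. Its highest array was cytoplast 4 and its lowest MII oocyte 3, whereas Hdac2 was lowest on cytoplast 4 and, among the MII oocyte arrays, highest on replicate 3. Hdac3 differed by 0.20 between SCC and cytoplast (interval -0.25 to 0.66, limma adjusted p = 0.668). Hdac8, the cohesin deacetylase, ran from 6.04 to 10.29 over all 10 arrays and never reached an array's median.

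Since Hdac1 and Hdac2 sit in the same complexes, their ratio was compared within each array, which cancels a factor common to all probe sets of the array but not a shift that depends on brightness. Hdac1 was not above background on any array and ran from 37.2 to 56.1, so the ratio mostly follows Hdac2. The log2 ratio of Hdac2 to Hdac1 was 4.84, 5.57 and 5.31 in the SCC, 3.63, 3.98, 4.36 and 3.48 in the cytoplast, and 3.88, 5.12 and 3.63 in the MII oocyte. The SCC arrays lay above all cytoplast arrays, and MII oocyte 3 again lay among the SCC arrays. SCC minus cytoplast was 1.38 (two-sided exact permutation p = 0.0286, the smallest that 3 against 4 arrays allow; 0.0857 after Benjamini-Hochberg over the 3 pairs of groups). SCC minus MII oocyte was 1.03 (exact permutation p = 0.2, smallest possible 0.1; 0.3 adjusted), and cytoplast minus MII oocyte was -0.34 (exact permutation p = 0.514, also after adjustment). A change in the ratio says that the 2 probe sets changed unequally. SCC minus cytoplast was 1.08 after cyclic loess, 1.07 after quantile normalization and 1.26 with the mean of both tested Hdac2 probe sets in place of the brighter one (exact permutation p = 0.0571 for each).

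Class IIa genes were dim and did not pass the test in any comparison. Hdac9, a class IIa gene best known from muscle and the nervous system, came nearest. Its probe set 1434572_at read 75.7, 68.9 and 93.9 in the SCC, 50.3, 55.3, 69.6 and 24.9 in the cytoplast, and 34.7, 85.9 and 56.2 in the MII oocyte. The lowest SCC array, 68.94, fell just below the highest cytoplast array, 69.61. The log2 difference of 0.75 between SCC and cytoplast (SE 0.35, interval -0.0046 to 1.51, limma adjusted p = 0.251) did not pass, and no array was above background.

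Hdac9 shared the array pattern of Hdac2 in part. The log2 values of Hdac9 and Hdac2 1445684_s_at correlated at 0.83 over the 10 arrays and at 0.798 after the group means were taken out. Of 12712 other genes, 4.2% correlated with Hdac2 above 0.9, a level that Hdac9 did not reach. The share above 0.83 was not counted. Hdac9 and Hdac2 were both lowest on cytoplast 4, and both had their highest MII oocyte value on replicate 3. Within the SCC they parted: Hdac2 was highest on SCC 2, where Hdac9 was lowest. The hybridisation controls were at their highest in the cytoplast group on cytoplast 4 (log2 10.90) and at their lowest in the MII oocyte group on replicate 3 (9.62). In the SCC group they went the other way: they were highest on SCC 3 (11.06), where Hdac9 was highest. They were lowest on SCC 1 (9.73), where Hdac2 was lowest. The part of the controls in this likeness was not tested. The other Hdac9 probe set, 1421306_a_at, lay between 7.77 and 10.46 and was not tested.

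Hdac7, which represses gene programmes of endothelial cells and thymocytes, had the smallest SE of the 9 tested probe sets between SCC and cytoplast, 0.10, with 1420813_at. That probe set ran from 70.91 to 76.83 in the SCC, from 71.66 to 82.56 in the cytoplast and from 69.99 to 73.30 in the MII oocyte. SCC minus cytoplast was -0.03, with an interval of -0.25 to 0.20, but it was above background on no array, where a difference can be understated. Its second probe set, 1420812_at, was more scattered, with 29.27, 33.92 and 51.65 in the SCC, and differed by 0.04 (interval -0.38 to 0.47, limma adjusted p = 0.94). Hdac4, a regulator of muscle and bone genes, had its tested probe set 1447566_at between 10.85 and 17.83, with SCC minus cytoplast at -0.27 (interval -0.63 to 0.08, limma adjusted p = 0.397). Its values exceeded the array's median on 3 arrays, just enough to be tested. Its other 2 probe sets stayed between 8.93 and 17.72, and Hdac5 between 10.21 and 15.36, all without a test.

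For the class IIb genes the tubulin deacetylase Hdac6 is the one with a known tie to microtubules. It read 45.1, 41.9 and 40.2 in the SCC, 52.6, 42.1, 37.6 and 41.9 in the cytoplast, and 55.1, 37.6 and 48.3 in the MII oocyte. The groups overlapped, and the difference between SCC and cytoplast was -0.03 (interval -0.36 to 0.31, limma adjusted p = 0.948). No enrichment of its mRNA at the spindle was detectable, and all arrays were below background. The 2 probe sets of Hdac10 ran from 5.10 to 13.70 and never reached an array's median.

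The comparisons with the intact egg gave no call among the members. Between SCC and MII oocyte, 0 of 9 passed by limma in either direction and 1, Hdac2 1445684_s_at, had an unadjusted p under 0.05; over all tested probe sets 0.0421% were higher, 0% lower, and 12.1% had an unadjusted p under 0.05. The members' median was 0.04, beside -0.0013 for all tested probe sets. Between cytoplast and MII oocyte, again 0 of 9 passed by limma and 0 had an unadjusted p under 0.05, beside 0% and 4.44% over all tested probe sets. The members' median there was -0.09, beside -0.05 for all tested probe sets. The comparisons share their arrays in pairs, so these counts are not independent of each other.

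**Figure D4:**
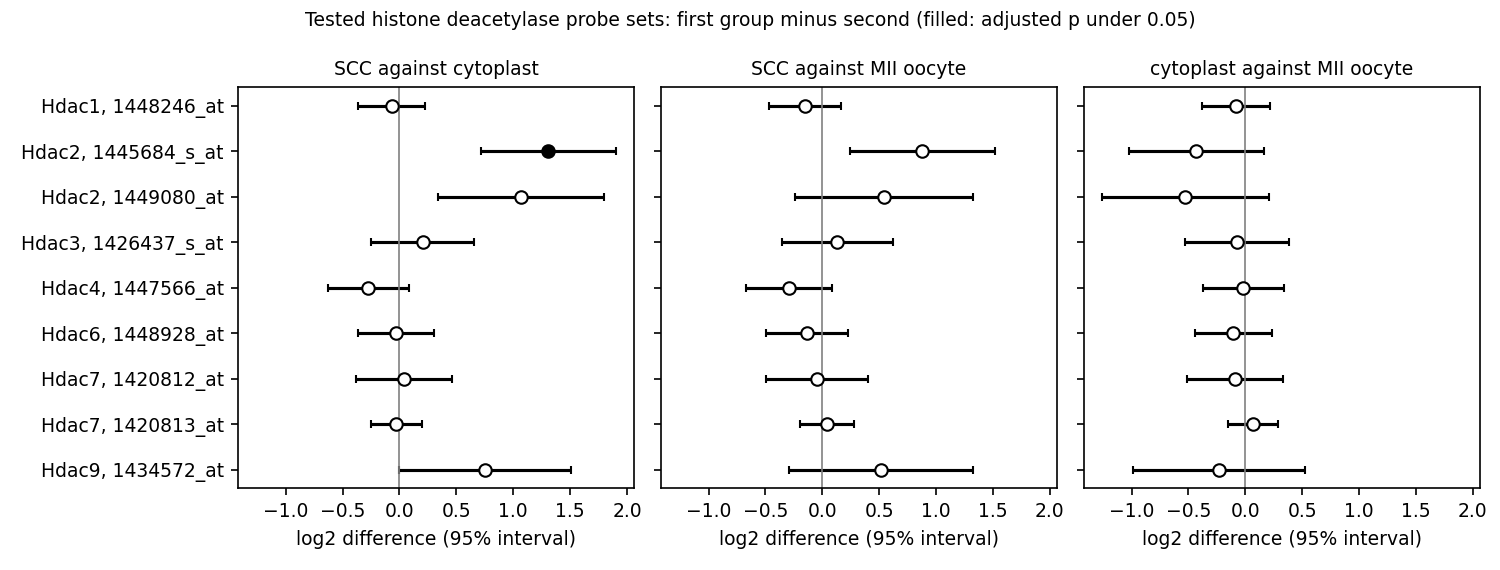
Log2 difference with its 95% interval (horizontal axis) for the 9 tested histone deacetylase probe sets (rows) in the 3 comparisons (panels), first group minus second; filled points have an adjusted p under 0.05. The single filled point is Hdac2 1445684_s_at, SCC against cytoplast, at 1.31.

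The genes whose array pattern was most like that of Hdac2 were looked up among 12712 other genes, by Pearson correlation of log2 values over the 10 arrays. The nearest were Nsmce4a, a subunit of the SMC5/6 complex (0.995), Togaram1, a microtubule-binding protein of cilia (0.992), Ebag9 (0.992), Cth, an enzyme of cysteine synthesis (0.989), and 2410004B18Rik (0.988). Nsmce4a had 1514 ± 227 (SD, n = 3) in the SCC, 713.9 ± 163 (SD, n = 4) in the cytoplast and 933.6 ± 405 (SD, n = 3) in the MII oocyte, with a log2 difference between SCC and cytoplast of 1.10. Togaram1 differed by 0.85, Ebag9 by 1.31, Cth by 0.97 and 2410004B18Rik by 1.02. These genes were chosen on the same arrays, so their differences follow from the choice and were given no test. Such likeness was common: 534 genes, 4.2% of those compared, correlated with Hdac2 above 0.9. The 10 arrays come from 3 groups and share their array-wide shifts, so these correlations are descriptions.

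The partners that carry Hdac1, Hdac2 and Hdac3 were taken list by list, with each gene represented by its brightest tested probe set. Between SCC and cytoplast, 8.02% of all 12713 genes were higher and 0.275% lower, with a median of 0.02. Of probe sets with a mean log2 above 8, 20.3% were higher, with a median of 0.28. Of 11 tested NuRD subunits, 0 passed in either direction by limma, and the median was 0.19. The member with the smallest p was Chd4, the remodelling ATPase, with 105, 111 and 118 in the SCC against 206.1, 176, 189 and 135 in the cytoplast. These point opposite to Hdac2 (log2 difference -0.65, SE 0.21, limma adjusted p = 0.096). Chd4 was above background on 1 of the 3 SCC arrays and on all 4 cytoplast arrays. In the MII oocyte Chd4 read 107, 89.3 and 175. SCC minus MII oocyte was -0.10 (limma unadjusted p = 0.681), and cytoplast minus MII oocyte was 0.55 (limma unadjusted p = 0.0235, adjusted p = 0.926). Against the cytoplast, Chd4 passed as lower in the SCC after quantile normalization (-0.86, limma adjusted p = 0.0427). It also passed with the arrays of the 2 groups alone (adjusted p = 0.0266) and without MII oocyte 3 or MII oocyte 4.

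Of 12 tested genes of the Sin3 complex, 2 were higher, beside 8.02% of all genes and 20.3% of probe sets with a mean log2 above 8. None was lower, and the median was 0.20. Arid4a, a DNA-binding subunit, read 112, 196.5 and 211 in the SCC, 58.6, 55.7, 61.7 and 72.5 in the cytoplast, and 94.4, 109 and 130.4 in the MII oocyte. The SCC arrays all lay above the cytoplast arrays, and no cytoplast array was above background. It was at least 1.70-fold higher in the SCC (log2 difference 1.43, SE 0.21, limma adjusted p = 0.00527), and it passed under all 9 other settings and whichever of the 10 arrays was left out, which Hdac2 itself did not. Brms1l, a subunit related to a metastasis suppressor, averaged 808.4 ± 221 (SD, n = 3) on the SCC arrays and 499.7 ± 23.9 (SD, n = 4) on the cytoplast arrays, 1.58-fold higher (log2 0.66, limma adjusted p = 0.0261). It lost the call after cyclic loess (0.38, adjusted p = 0.161) and quantile normalization (0.36, adjusted p = 0.181). The count of 2 was 1 without SCC 2, SCC 3, cytoplast 1, cytoplast 2 or cytoplast 3, and 3 without MII oocyte 3 or cytoplast 4.

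Of 8 tested CoREST genes and 2 of the mitotic deacetylase complex, 0 passed by limma, with medians of 0.26 and 0.16. Rcor1, the scaffold of CoREST, had the smallest p (log2 0.43, limma adjusted p = 0.0708), and Dnttip1 that of the mitotic complex (0.23, adjusted p = 0.539). Of the 5 genes of the NCoR and SMRT complexes, in which Hdac3 works, 2 were tested and 1 was higher, beside 8.02% of all genes. Tbl1xr1, which helps exchange corepressors for coactivators, read 210.4, 255 and 234 in the SCC, 114, 112, 136 and 97.7 in the cytoplast and 87.3, 182 and 135 in the MII oocyte. All SCC arrays exceeded all arrays of both other groups. It was 2.03-fold above the cytoplast (log2 1.02, SE 0.21, limma adjusted p = 0.017), a call lost after cyclic loess (adjusted p = 0.077) and quantile normalization (0.0837) and without SCC 2, SCC 3, cytoplast 1 or cytoplast 2 (adjusted p up to 0.0914). Of 20 tested partners and kinases of class IIa enzymes, 0 passed by limma and the median was 0.02; Ywhag, an adaptor that holds phosphorylated class IIa enzymes in the cytoplasm, had the smallest p (0.73, limma adjusted p = 0.0573). That count became 1 without SCC 1 or MII oocyte 3 and 2 without cytoplast 4, and the CoREST count became 1 without cytoplast 3.

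The other deacetylases were a separate list of sirtuins, which need NAD, and Hdac11, the class IV enzyme. All 8 were tested and 1 was higher in the SCC, with a median of -0.09. The shares called higher were 8.02% of all genes and 20.3% of probe sets with a mean log2 above 8. Sirt1, a nuclear sirtuin, averaged 571.2 ± 142 (SD, n = 3) on the SCC arrays and 326.7 ± 72.8 (SD, n = 4) on the cytoplast arrays, 1.75-fold higher (log2 0.80, SE 0.21, limma adjusted p = 0.0402). It was the only one of the 8 above background on any array, and its call was lost under 6 of 9 other settings and without 6 of the 10 arrays. The count of 1 was 0 without SCC 2, SCC 3, cytoplast 1, cytoplast 2 or MII oocyte 4, and 2 without MII oocyte 2 or MII oocyte 3. Hdac11 differed by 0.03 (SE 0.16, limma adjusted p = 0.953).

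Among the enzymes that add acetyl groups, 3 of 15 tested genes were higher and none lower, with a median of 0.29. Of all genes 8.02% were higher, and of probe sets with a mean log2 above 8, 20.3%. Hat1, which acetylates newly made histones, averaged 535.5 ± 55.1 (SD, n = 3) on the SCC arrays and 318.1 ± 31.8 (SD, n = 4) on the cytoplast arrays, 1.68-fold higher (limma adjusted p = 0.028). Esco1, which acetylates cohesin, was 1.39-fold higher (limma adjusted p = 0.0404) and Taf1, a subunit of the general transcription factor that binds the TATA box, at least 1.08-fold (limma adjusted p = 0.0328). Taf1 was above background on 1 of the 3 SCC arrays and on 0 of the 4 cytoplast arrays, so its bound rests mostly on values below background. All 3 genes lost the call after cyclic loess and after quantile normalization. With 1 array left out the count was 0 without SCC 2, SCC 3, cytoplast 1 or cytoplast 2, and at most 4, without MII oocyte 3.

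Among the bromodomain proteins that read acetyl-lysine, 5 of 24 tested genes were higher and none lower, with a median of 0.16. The shares called higher were 8.02% of all genes and 20.3% of probe sets with a mean log2 above 8. Atad2, a bromodomain ATPase, read 359, 463 and 449 in the SCC, 92.3, 109, 121 and 86.6 in the cytoplast and 94.6, 131 and 164 in the MII oocyte. Its SCC arrays exceeded all others by a wide margin, and it was higher both than in the cytoplast (4.16-fold, limma adjusted p = 0.00128) and than in the MII oocyte (3.32-fold, limma adjusted p = 0.0239), where 0.0472% of all genes passed as higher. The call against the MII oocyte was lost with the arrays of the 2 groups alone (limma adjusted p = 0.168) and without SCC 2, SCC 3, cytoplast 1 or MII oocyte 2 (adjusted p up to 0.195). Phip, a protein with bromodomains and WD repeats, read 1266, 1604 and 1871 in the SCC, 879, 741, 939 and 884 in the cytoplast and 1027, 1011 and 995 in the MII oocyte, with no overlap between SCC and either group. It was 1.82-fold above the cytoplast (log2 0.86, SE 0.14, limma adjusted p = 0.00736), and like Atad2 and Arid4a it passed against the cytoplast under all 9 other settings and with each array left out. Atad2b, the paralogue of Atad2, was 2.10-fold higher (limma adjusted p = 0.00931) and Baz1a, a subunit of chromatin remodellers, 1.79-fold (limma adjusted p = 0.0157), and both lost the call after cyclic loess and after quantile normalization. Brd7, a subunit of a SWI/SNF remodeller, differed by 0.55 (SE 0.14, limma adjusted p = 0.0382). The count of 5 was 2 without SCC 2 or SCC 3, 3 without cytoplast 1 or cytoplast 2, and 4 to 6 without any other array.

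The marker lists give the setting for these counts. Of 14 tested oocyte markers, 2 were higher in the SCC, beside 8.02% of all genes, with a median of 0.41 and 13 positive differences. Of probe sets with a mean log2 above 8, 20.3% were higher, with a median of 0.28. The 2 markers were Dppa3, a maternal protein that guards DNA methylation (1.37-fold, limma adjusted p = 0.0374), and Kit, the receptor of the oocyte surface (at least 1.58-fold, limma adjusted p = 0.0235), and both lost the call after cyclic loess and after quantile normalization. Kit was above background on 2 of the 3 SCC arrays and on 0 of the 4 cytoplast arrays. With 1 array left out the count was 0 without SCC 2, cytoplast 1 or cytoplast 2, 1 without SCC 1, SCC 3 or cytoplast 3, and 4 without cytoplast 4. Of 12 tested markers of cumulus and granulosa cells, 0 passed by limma, with a median of -0.03; Kitl, the ligand of Kit, had the smallest p (log2 0.73, limma adjusted p = 0.156). Of 26 tested genes of other tissues, 1 was higher, Miox, an enzyme of kidney (log2 1.06, SE 0.28, limma adjusted p = 0.0402). Miox was above background on all 10 arrays, as were Cpa1 (log2 0.75, limma adjusted p = 0.0768) and Vil1 (log2 -0.20, limma adjusted p = 0.496). The part of cumulus RNA in the Hdac2 difference was not tested.

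**Figure D5:**
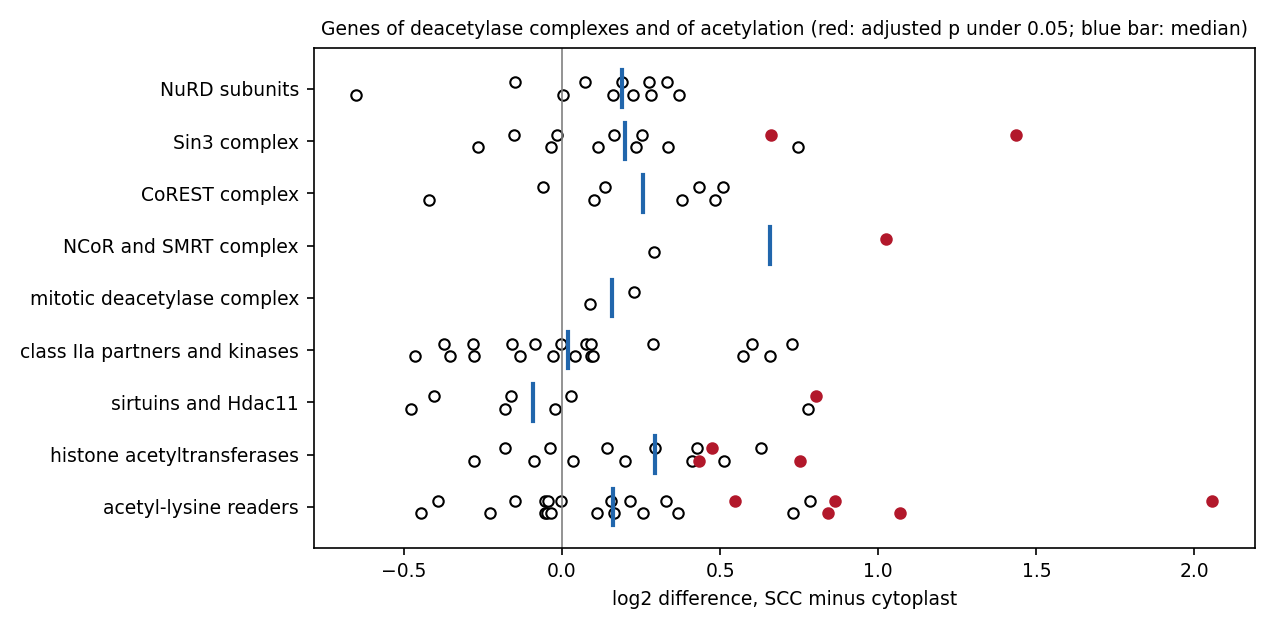
Log2 difference between SCC and cytoplast (horizontal axis) of each tested gene (points) in the lists of deacetylase complexes, class IIa partners, other deacetylases, acetyltransferases and readers (rows); red points have an adjusted p under 0.05 and blue bars are medians. Red points lie to the right of 0 in each list that has any, led by Atad2 at 2.06, and the NuRD, CoREST and mitotic complex lists have none.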

How the data were processed

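Total RNA of 3 SCC, 4 cytoplast and 3 MII oocyte samples was amplified and hybridised to 10 one-colour Affymetrix arrays, and the samples were grouped by their titles. The authors deposited 1 intensity value per probe set and array on a linear scale. They came from RMA (background correction, normalization and summary of the probes of a set), per the submitters' processing notes, whose version is not stated there. Since a fixed amount of labelled RNA goes onto each array, a value is a relative amount within a sample and not an amount per oocyte. Precision is limited by how many arrays each group has.

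The annotation gave 1 gene for 34945 of 45101 probe sets, several for 932 and none for 9160, and 64 were controls. By gene ID, 34741 of the 34945 were found in the RefSeq gene table. The design had allowed for log2 or linear values, so log2 of the deposited intensities was taken first. Tested were the 23737 probe sets, controls left out, that exceeded the median of an array on 3 or more arrays. The test was limma 3.58.1 in R 4.3.3, fitting a mean for each group to the 10 arrays, with Benjamini-Hochberg adjustment and a threshold of 0.05. It was also run on simulated data with independent noise for each probe set and array. Those data held no array-wide shifts, so that run cannot tell how the calls fare under such shifts. A gene was represented by its tested probe set with the highest mean (12713 genes). The Hdac2 to Hdac1 ratio was tested by exact two-sided permutation.

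The background level of an array was the 95th percentile of 85 probe sets of 48 genes of other tissues. A fold against a group with no array above it is a lower bound, with each array of that group set to at least that level, and no fold is given where both groups lay below it or the bound was under 1. Named besides the members were up to 4 genes of each list past the threshold between SCC and cytoplast with the smallest p, or the 1 with the smallest p where none passed, and the 5 genes whose values were most like those of Hdac2; Brd7 and Miox were named after their values were seen. The members and the lists were chosen with earlier results of these data known. Alternatives were other scalings, filters, an offset of 16 before the log, only the arrays of the groups compared, moderation with trend and robust settings, the level of the hybridisation controls as a covariate, the replicate number as a block, another background level and each array left out. Genome coordinates are not used here.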

Additional observations from a re-analysis of the deposited data

How the results depend on the processing

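Every Hdac2 difference kept its sign under all settings run, and the call of 1445684_s_at between SCC and cytoplast held under 7 of 9 other settings and without 7 of the 10 arrays. Of the members, 1 was called higher in the SCC against the cytoplast, and the number became 0 after cyclic loess or quantile normalization, 2 with the hybridisation controls as a covariate, with the arrays of the 2 groups alone or with the replicate block, and 0 to 2 with 1 array left out; against the MII oocyte it was 0 to 1 with 1 array left out. With the background at the 75th percentile of the array, 8 member probe sets were above it on at least 1 array and 3 on every array. Without single arrays the Hdac2 to Hdac1 ratio differed by 1.21 to 1.58 between SCC and cytoplast and by -0.64 to 0.11 between cytoplast and MII oocyte, and it was 1.08 after cyclic loess, 1.07 after quantile normalization and 1.26 with all tested probe sets averaged (exact permutation p = 0.0571 for each). With 1 array fewer the smallest possible p of the ratio is higher.

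Over all probe sets, higher calls between SCC and cytoplast (1599) became 483 after cyclic loess, 423 after quantile normalization, 2732 with the covariate and 243 (without SCC 3) to 2043 (without MII oocyte 3) with 1 array left out. Lower calls (65) became 135 after cyclic loess, 154 after quantile normalization, 285 with the covariate, 43 with an offset of 16, 185 with the 2 groups alone, 110 with the replicate block and 1 (without SCC 2) to 191 (without MII oocyte 3). Higher calls against the MII oocyte (10) became 295 with the covariate, 25 with the offset, 16 with no filter, 0 with the 2 groups alone, 6 after quantile normalization, 125 with the replicate block and 0 to 441. Lower calls there (0) became 14 with the covariate, 14 with the replicate block and 0 to 252. The cause was not tested.

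Small uncalled differences changed sign: with the covariate, cytoplast minus MII oocyte became 0.036 for Hdac3, 0.051 for Hdac4 and 0.0029 for Hdac7 1420812_at, and SCC minus MII oocyte 0.069 for Hdac7 1420812_at; with the replicate block the last was 0.075 and Hdac4 cytoplast minus MII oocyte 0.015. With 1 array left out, SCC minus cytoplast ran from -0.096 to 0.066 for Hdac6, -0.19 to 0.22 for Hdac7 1420812_at and -0.052 to 0.016 for Hdac7 1420813_at. SCC minus MII oocyte ran from -0.26 to 0.0065 for Hdac1, -0.077 to 0.32 for Hdac3 and -0.28 to 0.13 for Hdac7 1420812_at. Cytoplast minus MII oocyte ran from -0.19 to 0.076 for Hdac1, -0.28 to 0.11 for Hdac3, -0.21 to 0.040 for Hdac4, -0.26 to 0.020 for Hdac6, -0.20 to 0.038 for Hdac7 1420812_at and -0.57 to 0.086 for Hdac9.

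Groups share replicate numbers, but the deviations of same-numbered arrays correlated at 0.021 on average over 8 pairs (-0.304 to 0.614), and 3 of 10 arrays correlated best with their own number. The numbers are thus not shown to pair the arrays, and the replicate block served as an alternative; under it Hdac2 1445684_s_at differed by 1.21 (limma adjusted p = 0.00969) and 1449080_at by 0.90 (limma adjusted p = 0.0309). Signal over background limits the family: for the members not above it, a difference may be understated.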
